A study of Mus musculus with 27 samples.

Results

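The genes described here are 10 receptors through which B cells receive BAFF and interleukin signals, chosen by name from the 30735 genes of the deposited table: Tnfrsf13b, Tnfrsf13c, Tnfrsf17, Il4ra, Il21r, Il2rg, Il7r, Il5ra, Il10ra and Il27ra. RNA was sequenced from 27 samples of mouse B cells purified by B220, a surface antigen of B cells, and the values are TPM, a relative abundance per transcript that was summed per gene. The lymphomas were 19 samples labelled as malignant B cells of mice with a c-myc transgene at Igh: 7 of the line hv, 7 of cr, 4 of co, and 1 lung lymphoma (T39) that is titled hv and described as CO. The hv lymphomas came from lung (T1, T5, T7, T14, T16) and peripheral lymph node (T8, T15), the cr lymphomas from lung (T9, T14, T16) and mesenteric lymph node (T1, T6, T20, T35), and the co lymphomas from lung (T9, T30, T34) and peripheral lymph node (T2). The LPS group was splenic B cells of healthy mice given lipopolysaccharide (a bacterial mitogen for B cells) over 2 days, with 1 sample each of wt, cr, co and hv. The resting group was untreated splenic B cells, again 1 sample each of wt, cr, co and hv. The cr, co and hv samples of all groups carried the transgene, and the labels do not say what the names hv, cr and co stand for, nor which cells express the transgene. They also do not say whether the lymphomas, or the resting and LPS samples of a genotype, came from separate mice. Within the resting and the LPS group the 4 samples differ in genotype, so their spread mixes genotype, mouse and technical differences. Among lymphomas of a line the spread may be technical in part. Each p-value rests on such sample-to-sample spread.

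BAFF and its relative APRIL are TNF family cytokines that keep B cells alive. BAFF-R (Tnfrsf13c) binds BAFF and is the receptor that mature B cells need for survival, TACI (Tnfrsf13b) binds both cytokines and restrains B-cell numbers while supporting antibody responses, and BCMA (Tnfrsf17) serves long-lived plasma cells. The interleukin receptors signal through JAK kinases and STAT factors. Il2rg encodes the common gamma chain, which pairs with the chains encoded by Il4ra, Il21r and Il7r. Il5ra pairs with the common beta chain Csf2rb, Il10ra with Il10rb, and Il27ra with Il6st.

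Across these groups the receptors did not move as 1 block. The interleukin receptor chains Il2rg, Il4ra, Il10ra and Il27ra were lower both after LPS and in lymphomas than in resting cells. Tnfrsf13b was higher after LPS, and Tnfrsf13c passed the test in none of the 3 comparisons of groups. Il21r was lower in the lymphomas than in either non-malignant group. Il5ra and Il7r differed most between lymphomas. Each was above every resting sample in some of them and within or below the resting range in the rest, and no lymphoma was above 5 TPM for both. Il5ra left a wide gap between the 2 sets. For Il7r the division was less clear, as hv lung T5 (6.21 TPM) was not far above the co resting sample (4.49 TPM).

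The 250 bases before the RefSeq start are shown for 4 genes that the results below turn on: Tnfrsf13b, which LPS-treated cells held at a higher level, Il21r and Il2rg, which varied together over the lymphomas, and Il5ra, which was high in a few lymphomas. All are from GRCm38.p6, 5′ to 3′ on the strand of the gene, and each window ends at the base before the annotated gene. Capitals mark matches, on either strand, to 5 motifs: CACGTG (the E-box bound by MYC), TTCNNNGAA (STAT), TTCNNNNGAA (the spacing that STAT6 prefers), TGANTCA (AP-1) and GGGNNNNNCC (a loose kappaB motif).
Tnfrsf13b, plus strand, chr11:61126505-61126754: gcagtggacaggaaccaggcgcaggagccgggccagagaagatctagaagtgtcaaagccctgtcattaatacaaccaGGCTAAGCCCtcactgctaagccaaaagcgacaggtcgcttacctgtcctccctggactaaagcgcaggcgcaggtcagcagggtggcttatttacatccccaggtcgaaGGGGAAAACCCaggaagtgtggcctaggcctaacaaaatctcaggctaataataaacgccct
Il21r, plus strand, chr7:125603179-125603428: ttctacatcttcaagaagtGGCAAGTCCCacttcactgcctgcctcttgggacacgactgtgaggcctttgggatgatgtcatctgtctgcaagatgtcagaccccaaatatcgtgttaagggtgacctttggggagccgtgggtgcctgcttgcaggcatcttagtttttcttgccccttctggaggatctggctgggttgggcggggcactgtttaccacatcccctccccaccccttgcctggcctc
Il2rg, minus strand, chrX:101268256-101268505: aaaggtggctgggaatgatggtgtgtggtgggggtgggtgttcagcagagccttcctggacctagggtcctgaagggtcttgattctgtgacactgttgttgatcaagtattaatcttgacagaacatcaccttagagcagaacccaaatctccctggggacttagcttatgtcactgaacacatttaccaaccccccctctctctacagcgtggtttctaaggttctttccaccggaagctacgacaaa
Il5ra, minus strand, chr6:106749038-106749287: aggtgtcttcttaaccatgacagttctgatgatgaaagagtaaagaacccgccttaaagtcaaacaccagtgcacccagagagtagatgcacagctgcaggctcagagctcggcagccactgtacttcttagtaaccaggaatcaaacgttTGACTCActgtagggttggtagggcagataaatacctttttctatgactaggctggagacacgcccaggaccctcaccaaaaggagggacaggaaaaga
The Tnfrsf13b window held 3 kappaB matches, at -172 and, overlapping by all but 1 base, at -62 and -61 from the start. The Il21r window held 1 kappaB match, at -231. The Il5ra window held 1 AP-1 match, at -99, and the Il2rg window held none of the 5 motifs. Of 32851 RefSeq promoter windows of the same length, 45.8% held a kappaB match, 6.75% an AP-1 match, 7.02% a match to TTCNNNGAA, 5.85% a match to TTCNNNNGAA and 6.02% a CACGTG. The matches describe the letters of these windows and no binding was measured. RefSeq windows were found for 8 of the 10 genes, and Il10ra and Il27ra had no entry. Among the other 4, Tnfrsf13c held 1 kappaB match at -46, Il7r held 1 TTCNNNGAA match at -142, and Il4ra and Tnfrsf17 held none. The transcript counted for Il5ra in the deposited table begins at base 106745109, downstream of the RefSeq start on the minus strand, so its window is not next to the counted transcript.

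The purification and the libraries set limits that touch several genes. B-cell markers (10 genes, Cd79a among them) were abundant everywhere, with summed levels of 1448.1 to 4183.1 TPM in lymphomas, 1127.5 to 2292.0 TPM after LPS and 2954.1 to 5565.4 TPM in resting cells. Against resting cells, 9 of these 10 markers were called lower after LPS, where 33.0% of all genes tested were called lower, and 3 of 10 in lymphomas, where 17.4% were. Markers of macrophages (13 genes) summed to 11.3 to 317.6 TPM in lymphomas, 5.66 to 56.8 TPM after LPS and 179.3 to 1048.4 TPM in resting cells, highest in the cr and hv resting samples. Erythroid markers (9 genes, haemoglobin genes among them) shifted most, with sums of 16.8 to 1134.9 TPM in lymphomas, 176.0 to 2219.3 TPM after LPS and 11773.4 to 112655.3 TPM in resting cells, and all 9 were called lower in both comparisons with resting cells. NK-cell markers (7 genes) summed to 0.463 to 25.1 TPM in lymphomas, 0.578 to 5.99 TPM after LPS and 10.1 to 49.6 TPM in resting cells, with 4 of 4 tested called lower after LPS and 5 of 6 in lymphomas. NK cells and macrophages also carry several of these interleukin receptors, and their part in the falls below was not tested. The cr and hv resting samples were left out in a further run, chosen after seeing the data. It called 5 receptor genes against resting cells both after LPS and in lymphomas, as many as with all samples. The shares of all genes called with all samples were 58.2% and 31.9%, which are not the shares of this run. In lymphomas against resting cells the run called fewer genes in all, with the count given in the last section. The co resting sample, which was kept, had summed NK-cell markers of 47.3 TPM and summed macrophage markers of 331.6 TPM. The run was therefore no test of the part of these cells. In bulk samples, fewer cells of a type and less RNA per cell cannot be told apart. Steps in the TPM imply a depth of 11531400 to 32032600 read pairs per sample. The predicted gene Gm10800 held more than 1% of the TPM in 4 libraries (wt resting, cr LPS, hv LPS and the mesenteric node lymphoma cr T6), and calls that change without them are named with the genes. Its share was largest in cr LPS, at 18.6%. The gene Gm20594 held from 10.9% of the TPM in cr LPS to 34.3% in cr mesenteric node T35. Haemoglobin genes held 10.9% in cr resting and 11% in hv resting. Ratios of TPM between single samples carry these differences, and a rescaling without these genes is given below.

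**Figure D1:**
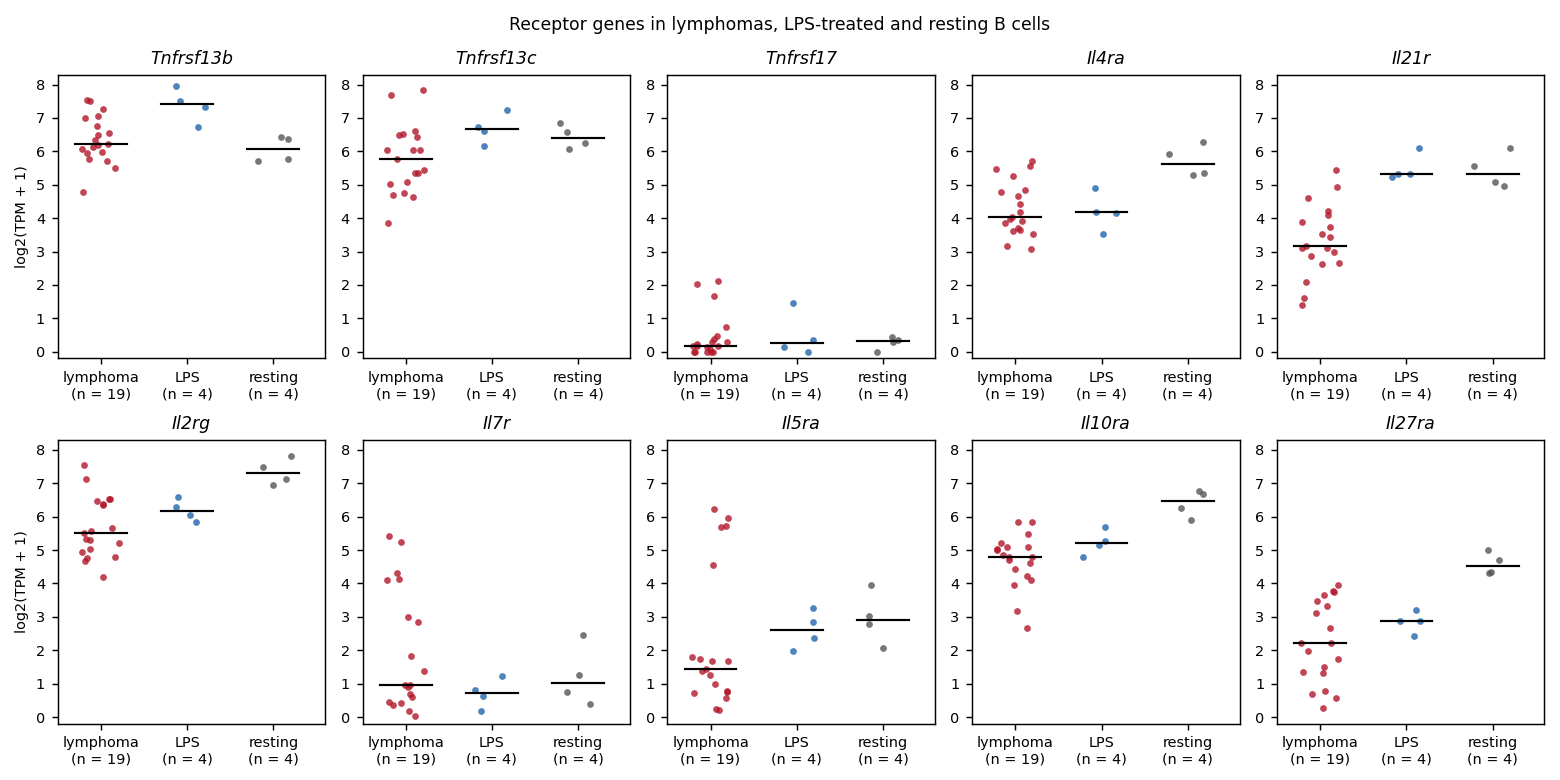
Levels of the 10 receptor genes as log2(TPM + 1), with 1 point per sample in lymphomas (red), LPS-treated cells (blue) and resting cells (grey) and a bar at the median. Tnfrsf13b stands highest after LPS, Il10ra and Il27ra lie below every resting sample in all 19 lymphomas, and Il5ra and Il7r spread over the widest range in lymphomas.

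Of the BAFF receptors, Tnfrsf13b (TACI; chromosome 11, 61126755 to 61149372 of GRCm38) was the one called between LPS-treated and resting cells. It was measured at 246 TPM in the wt, 183 in the hv, 160 in the co and 105 in the cr LPS sample, against 85.8, 51.4, 80.9 and 53.9 TPM in the resting samples of the same genotypes. Every LPS sample was above every resting sample. The ratio of LPS to resting was 3.55 in hv, 2.87 in wt, 1.98 in co and 1.95 in cr. By limma on log2(TPM + 1) the difference was 1.31 ± 0.26 (SE; adjusted p = 0.00113). The labels give no culture time for the untreated cells, so LPS and the 2 days cannot be told apart.

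Lymphomas held Tnfrsf13b at 26.7 to 186 TPM with a median of 73.9 TPM, against 105 to 246 TPM after LPS and 51.4 to 85.8 TPM in resting cells. The lymphomas thus spanned the resting range, with 8 of 19 above all resting samples and 2 below them, and limma gave no call against resting cells (0.29 ± 0.35, adjusted p = 0.553). The highest were co lung T30 (186 TPM), hv peripheral node T8 (181 TPM), hv-or-co lung T39 (153 TPM), hv peripheral node T15 (131 TPM) and co lung T34 (127 TPM). The lowest was cr mesenteric node T35, at 26.7 TPM. Against LPS-treated cells the difference was -1.02 ± 0.36 and narrowly missed the threshold (adjusted p = 0.057). It passed without the cr LPS sample (-1.24, adjusted p = 0.0476), under 2 other scalings (-1.04 and -1.03, adjusted p = 0.0212 and 0.0376 by limma), and without T39 (-1.07, adjusted p = 0.0429). It lay further from the threshold without the wt LPS sample (-0.84, adjusted p = 0.212) and with the longest transcript alone (-0.88, adjusted p = 0.0763).

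The Tnfrsf13b reads were also assigned to different transcripts. The table lists 7 transcripts, of which the longest (2556 bases, ENSMUST00000010286) was at 105 ± 31.1 TPM after LPS (SD, n = 4) and 47.8 ± 13.6 TPM in resting cells (n = 4). A transcript of 532 bases that starts near the same 5′ end (ENSMUST00000139422) was at 27.0 ± 11.8 TPM after LPS and 1.48 ± 0.307 TPM in resting cells. It made up 12.1 to 17.0% of the gene after LPS and 1.5 to 3.6% in resting cells, without overlap between these groups. A transcript of 364 bases from the same end (ENSMUST00000146033) made up 9.42 to 12.3% after LPS and 1.78 to 8.04% in resting cells. Conversely the transcript of 764 bases that starts inside the gene (ENSMUST00000137832) made up 4.04 to 7.78% after LPS, against 13.6 to 17.3% in resting cells. In lymphomas the 532-base transcript had a median share of 0.0% and reached 7.65%. The 364-base transcript had a median share of 0.324% there and reached 16.5%, above its range after LPS. Shares between overlapping transcripts are estimates of kallisto, which divides shared reads, and no test was made on them. With the longest transcript alone, an alternative chosen after seeing the data, Tnfrsf13b was called higher after LPS by 1.11 (adjusted p = 0.00251, limma).

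**Figure D2:**
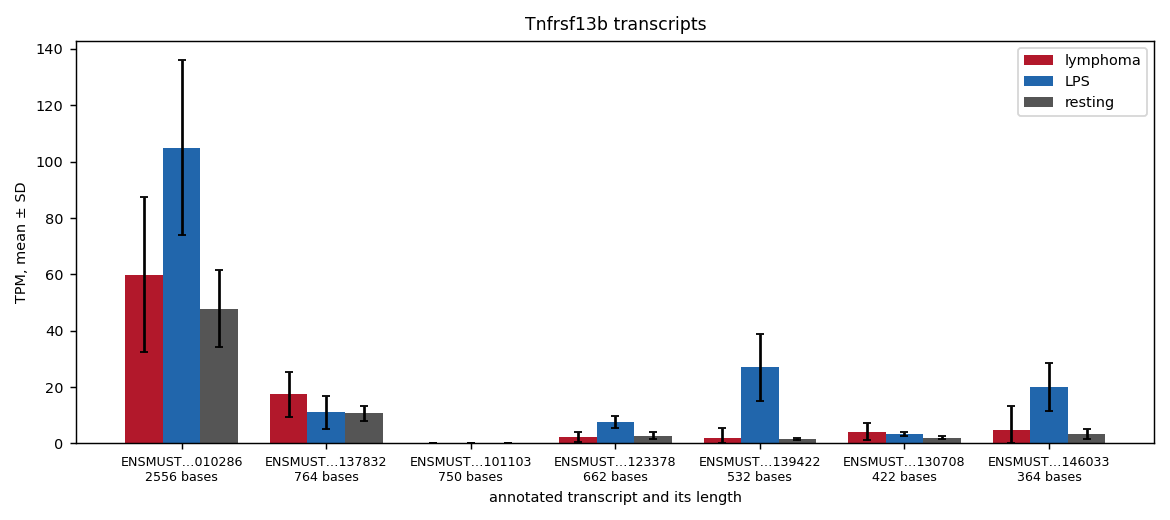
Mean TPM of the 7 annotated Tnfrsf13b transcripts, longest on the left, in 19 lymphomas, 4 LPS-treated and 4 resting samples, with SD as error bars cut at 0. The 2556-base transcript leads in every group, and the 532-base transcript stands at 27.0 TPM after LPS against 1.48 TPM in resting cells.

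Tnfrsf13c (BAFF-R; chromosome 15, 82221743 to 82224369) was abundant in all groups and passed no test. It ranged over 13.3 to 229 TPM in lymphomas with a median of 53.7 TPM, over 70.1 to 150 TPM after LPS and over 65.8 to 114 TPM in resting cells. 13 of 19 lymphomas were below every resting sample and 2 were above them all, co lung T34 (229 TPM) and hv-or-co lung T39 (205 TPM). The lowest lymphoma was hv lung T1 (13.3 TPM). The differences were -0.66 ± 0.50 in lymphomas against resting cells (adjusted p = 0.319), -0.91 ± 0.50 against LPS-treated cells (adjusted p = 0.241) and 0.25 ± 0.24 after LPS against resting cells (adjusted p = 0.403, all by limma). The last passed (0.63, adjusted p = 0.0422) with the 4 libraries rich in Gm10800 left out. Within single lymphomas the balance of TACI to BAFF-R therefore varied widely: hv lung T1 had 71.3 TPM of Tnfrsf13b beside 13.3 TPM of Tnfrsf13c, while co lung T34 had 127 beside 229 TPM.

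Tnfrsf17 (BCMA; chromosome 16, 11313812 to 11320074) was near the limit of detection. It was below 1 TPM in 16 of 19 lymphomas, and the other 3 were co lung T34 (3.30 TPM), hv-or-co lung T39 (3.10 TPM) and co lung T30 (2.17 TPM). After LPS it was at 1.73 TPM in the cr sample, 0.28 in hv and 0.11 in co and was listed at 0 in wt, and in resting cells it was at 0.348 TPM in co, 0.262 in hv and 0.22 in cr and listed at 0 in wt. It was too low to be tested against resting cells, and gave -0.02 ± 0.36 in lymphomas against LPS (limma, adjusted p = 0.983). The 3 lymphomas with the most Tnfrsf17 were also among the 5 with the most Il5ra.

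Il2rg, the common gamma chain gene (chromosome X, 101264378 to 101268255), was the most abundant of these receptors in resting cells. It was measured at 95.0 TPM in the wt, 77.7 in the co, 65.2 in the hv and 56.6 in the cr LPS sample, against 227, 180, 122 and 138 TPM in the same genotypes at rest. All LPS samples were below all resting samples, and the ratio of LPS to resting lay between 0.41 in cr and 0.535 in hv. The lymphomas ranged over 17.3 to 186 TPM with a median of 44.3 TPM, and 17 of 19 were below every resting sample. The exceptions were hv lung T16 (186 TPM) and hv peripheral node T15 (138 TPM). Il2rg was called lower both after LPS (-1.15 ± 0.23, adjusted p = 0.000928) and in lymphomas (-1.67 ± 0.45, adjusted p = 0.00593), and lymphomas did not pass against LPS-treated cells (-0.52 ± 0.44, adjusted p = 0.476, all by limma).

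Il4ra, the chain that binds IL-4 and IL-13 (chromosome 7, 125552120 to 125579474), followed the same direction. It was at 28.8 TPM in the wt, 17.3 in the hv, 16.8 in the co and 10.4 in the cr LPS sample, against 77.4, 40.2, 59.1 and 38.1 TPM in the same genotypes at rest. No LPS sample reached the lowest resting sample. Lymphomas ranged over 7.47 to 51.4 TPM with a median of 15.3 TPM, 16 of 19 below every resting sample. The 3 others were hv peripheral node T15 (51.4 TPM), co lung T30 (46.6 TPM) and hv-or-co lung T39 (43.7 TPM). Il4ra was called lower after LPS (-1.52 ± 0.31, adjusted p = 0.0015) and in lymphomas (-1.43 ± 0.40, adjusted p = 0.0082), and lymphomas and LPS-treated cells differed by 0.10 ± 0.40 (adjusted p = 0.904, limma). The call in lymphomas was lost without the wt resting sample (-1.23, adjusted p = 0.0551) and without the libraries rich in Gm10800 (-1.17, adjusted p = 0.0599).

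Il21r, the receptor of the T follicular helper cytokine IL-21, lies 23955 bases downstream of Il4ra on the same strand of chromosome 7 (125603429 to 125633570), yet it did not follow Il4ra after LPS. It was at 67.2 TPM in the wt, 39.3 in the hv, 38.6 in the co and 36.2 in the cr LPS sample, against 67.6, 30.2, 46.1 and 33.2 TPM in the same genotypes at rest. The ranges overlapped and the ratio lay between 0.838 and 1.3. Limma gave 0.06 ± 0.27 after LPS (adjusted p = 0.863). In lymphomas it was far lower, at 1.66 to 42.6 TPM with a median of 7.93 TPM, and 18 of 19 were below every resting and every LPS sample. The exception was hv lung T16 at 42.6 TPM, and the next was co lung T30 at 29.7 TPM. Il21r was called lower in lymphomas against resting cells (-2.09 ± 0.52, adjusted p = 0.0034) and against LPS-treated cells (-2.15 ± 0.51, adjusted p = 0.00623, limma). It was the only receptor called between lymphomas and LPS-treated cells, and without the libraries rich in Gm10800 this call was lost although the difference was -2.33 (adjusted p = 0.0897).

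Il7r, the receptor chain that precursor B cells use and mature B cells largely switch off (chromosome 15, 9505788 to 9530176), was low in non-malignant cells and high in a minority of lymphomas. It was at 1.37 TPM in the cr, 0.739 in the co, 0.553 in the hv and 0.124 in the wt LPS sample, against 0.676, 4.49, 1.40 and 0.314 TPM in the same genotypes at rest. The highest resting value, in the co sample, stood in the resting sample with the most T-cell marker RNA (summed level 155 TPM over 10 genes, with Trac at 29.9 TPM), and T cells also express Il7r. In lymphomas the lowest value was 0.018 TPM, the median 0.958 TPM and the highest 41.7 TPM. The 7 lymphomas at 5 TPM or more were cr mesenteric node T20 (41.7 TPM), hv lung T7 (36.6 TPM), cr mesenteric node T6 (19.0 TPM), cr lung T14 (16.6 TPM), co lung T9 (16.3 TPM), cr lung T16 (7.02 TPM) and hv lung T5 (6.21 TPM), while 10 were below 1 TPM. Each of these 7 was above all non-malignant samples, and they came from every line. The group differences did not pass, with 0.78 ± 0.90 in lymphomas against resting cells (adjusted p = 0.527) and 1.28 ± 0.88 against LPS-treated cells (adjusted p = 0.36, limma).

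Genes of early B-cell development were low in 6 of the 7 lymphomas with high Il7r. Rag1, which recombines antigen receptor genes in precursor B cells, was at 27.8 TPM in co lung T9 but at most at 1.24 TPM in the other 6, and the highest Rag1 values, 58.2 TPM in cr mesenteric node T35 and 46.7 TPM in cr lung T9, went with 0.53 and 0.621 TPM of Il7r. Rag2, its partner, was at 12.5 TPM in co lung T9 and at most at 1.09 TPM in the other 6, and Dntt, Igll1 and Vpreb1 were at most at 1.22 TPM in all 7. Such low values were not particular to lymphomas with high Il7r. Rag1 was also at most at 1.10 TPM in hv lung T16, hv peripheral node T8 and T15, co lung T34, T39 and cr mesenteric node T1. Dntt, Igll1 and Vpreb1 were at most at 2.56 TPM in all 19 lymphomas. The 4 lymphomas with the most Il7r were also the 4 with the most Sdc1, the gene of the plasma cell surface antigen CD138: 46.4 TPM in T20, 31.9 TPM in hv T7, 17.6 TPM in cr T6 and 35.9 TPM in cr T14. Sdc1 was at most 5.79 TPM in the other 15. Over the 19 lymphomas the rank correlation of Il7r was 0.65 with Sdc1 and 0.61 with Xbp1, both plasma cell markers, but 0.23 with Jchain, 0.18 with Irf4 and 0.07 with Mzb1 of the same list (Spearman's rho, a description of samples that differ in line and site). With B-cell markers it ran from -0.58 for Cd22 to 0.14 for Cd79a. T-cell marker sums in these 7 lymphomas were at most 80.9 TPM, below the 3 highest sums (215.7 TPM in T39, 166.7 TPM in co T34 and 114.2 TPM in co T30), which went with 0.339, 0.958 and 0.361 TPM of Il7r. The next 3 sums were in lymphomas with high Il7r, 80.9 TPM in cr T20, 59.8 TPM in cr T14 and 45.7 TPM in hv T7. Cd3g made up 59.2, 32.8 and 18.8 TPM of these, beside Cd3e at 0.042, 0 and 0.28 TPM and Trac at 2.04, 3.06 and 4.24 TPM, and the rank correlation of Il7r with Cd3g was 0.48. The part of T cells in these Il7r values was not tested.

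Il5ra, the IL-5 receptor chain that marks B-1 cells and eosinophils (chromosome 6, 106710357 to 106749037), showed the widest division. It was at 8.69 TPM in the cr, 6.24 in the wt, 4.18 in the hv and 2.91 in the co LPS sample, against 5.90, 14.5, 3.17 and 7.22 TPM in the same genotypes at rest, and these ranges overlapped. Among lymphomas it was at 74.3 TPM in hv-or-co lung T39, 60.8 TPM in hv peripheral node T15, 51.8 TPM in co lung T34, 50.7 TPM in co lung T30 and 22.6 TPM in hv peripheral node T8. These 5 were above all 8 non-malignant samples. The other 14 lymphomas were at most 2.50 TPM and below all 8. No lymphoma lay within the range of the non-malignant cells, so the mean differences of -0.68 ± 1.03 against resting cells (adjusted p = 0.641) and -0.33 ± 1.03 against LPS-treated cells (adjusted p = 0.866, limma) describe no actual lymphoma.

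The 5 lymphomas with high Il5ra had other features in common and some that set them apart. Csf2rb, the beta chain that Il5ra needs to signal, was at 94.4 TPM in T15, 62.3 TPM in T34, 59.5 TPM in T39, 31.7 TPM in T30 and 12.1 TPM in T8. In the other 14 lymphomas it was at most 19.4 TPM, the value of hv lung T16. T8 was thus not set apart by Csf2rb. It was below T16, hv lung T5 (12.5 TPM) and cr mesenteric node T35 (12.4 TPM), and within the range of the non-malignant samples. The rank correlation of Il5ra with Csf2rb over 19 lymphomas was 0.47. Tnfrsf13b was high in all 5 lymphomas with high Il5ra, which were the 5 lymphomas with the most Tnfrsf13b. Its rank correlation with Il5ra over 19 lymphomas was 0.79. The 3 lung lymphomas of the set also had the most Cd5, a surface antigen of T cells and of B-1a cells, at 31.8 TPM in T34, 22.4 TPM in T39 and 9.73 TPM in T30, beside Cd3e at 1.09, 1.30 and 0.416 TPM. Their summed T-cell markers, given above, were the 3 highest of all lymphomas, with Cd3g at 63.6, 96.5 and 25.1 TPM, Lck at 40.8, 44.1 and 61.2 TPM and Trbc2 at 11.6, 8.78 and 10.1 TPM. Cd5 is itself part of these sums. Other markers of the list did not set all 3 apart. Trac was at 7.21, 4.79 and 2.25 TPM, where hv lung T16 had 5.99 TPM. Cd28 was at 0.953, 0.664 and 0.429 TPM, where T15 had 11.6 TPM. Cd5 was at 3.73 TPM in T15 and 1.19 TPM in T8. These 2 node lymphomas carried single eosinophil markers instead, with Siglecf at 38.6 TPM and Prg2 at 0.477 TPM in T15, and Prg2 at 26.4 TPM and Siglecf at 0.086 TPM in T8. The summed eosinophil markers (4 genes) were thus 39.1 and 26.5 TPM there and at most 2.37 TPM in the other 17 lymphomas, Epx was listed at 0 in both, and Ccr3 was at 0.025 and 0.047 TPM. Summed macrophage markers were 168 TPM in T15, 103 in T8, 142 in T34, 103 in T39 and 66.4 in T30, with a median of 103.4 TPM. The other 14 lymphomas had a median of 36.3 TPM and reached 243.5 TPM in co T9 and 317.6 TPM in hv T16, and 9 of them were below all 5. The macrophage marker Cd68 was higher in T15 (117 TPM) than in any other of the 27 samples. Summed NK-cell markers were 3.81 TPM in T15, 25.1 in T8, 11.8 in T34, 14.7 in T39 and 4.05 in T30, with a median of 11.8 TPM. The other 14 lymphomas had a median of 2.58 TPM and reached 8.42 TPM, and 10 of them were below all 5. The part of other cells in these Il5ra values was not tested. Il7r was below 1 TPM in all 5.

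**Figure D3:**
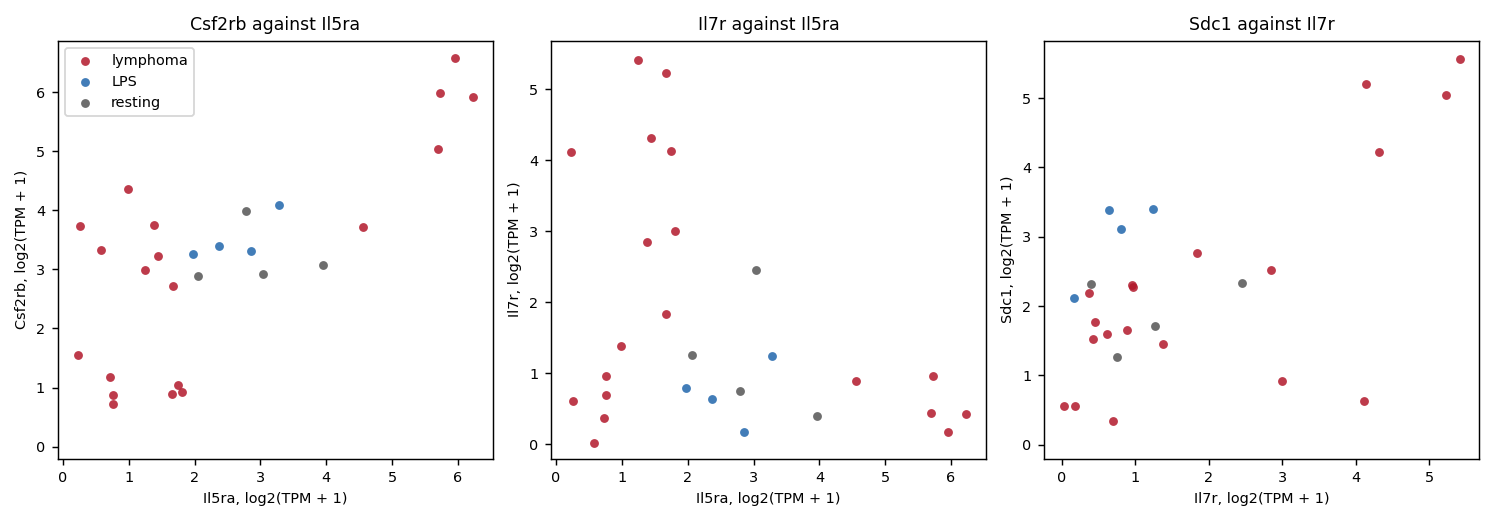
Csf2rb against Il5ra (left), Il7r against Il5ra (middle) and Sdc1 against Il7r (right), each as log2(TPM + 1), with 1 point per sample and lymphomas in red, LPS-treated cells in blue and resting cells in grey. The 5 lymphomas with Il5ra at 22.6 TPM or more stand apart on the right of the first 2 panels, and none of them has Il7r at 1 TPM or more.

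Il10ra, which binds the anti-inflammatory cytokine IL-10 (chromosome 9, 45253837 to 45269149), was lower in every LPS and lymphoma sample than in any resting sample. It was at 50.9 TPM in the wt, 37.6 in the co, 34.6 in the hv and 26.9 in the cr LPS sample, against 108, 101, 58.8 and 75.9 TPM in the same genotypes at rest. In lymphomas it ranged over 5.36 to 56.8 TPM with a median of 26.8 TPM, and the top value, in hv peripheral node T15, was just under the lowest resting value of 58.8 TPM. It was called lower after LPS (-1.17 ± 0.24, adjusted p = 0.00107) and in lymphomas (-1.72 ± 0.40, adjusted p = 0.00181), and lymphomas did not pass against LPS-treated cells (-0.55 ± 0.40, adjusted p = 0.382, limma). The 4 mesenteric node lymphomas, all of line cr, had 16.3, 14.6, 7.94 and 5.36 TPM, and no other lymphoma was below 17.5 TPM.

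Il27ra, the specific chain of the IL-27 receptor (chromosome 8, 84030294 to 84042589), showed the largest fall of the receptors tested, 8 after LPS and 9 in lymphomas, each against resting cells. It was at 8.15 TPM in the wt, 6.31 in the hv, 6.27 in the co and 4.32 in the cr LPS sample, against 25.2, 18.9, 30.7 and 19.2 TPM in the same genotypes at rest. In lymphomas it ranged over 0.216 to 14.4 TPM with a median of 3.63 TPM, and all 19 were below every resting sample. It was called lower after LPS (-1.75 ± 0.22, adjusted p = 2.86e-05) and in lymphomas (-2.36 ± 0.59, adjusted p = 0.00354). Against LPS-treated cells it gave -0.61 ± 0.59 (adjusted p = 0.533, limma), with 6 lymphomas above all LPS samples and 11 below. The 3 peripheral node lymphomas had 14.4, 12.5 and 12.3 TPM, the highest of all lymphomas, and the 7 cr lymphomas had 0.216 to 3.68 TPM.

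These counts stand against a high background. After LPS, 5 of the 8 receptors tested were called, 1 higher and 4 lower, where 58.2% of all 11999 genes tested were called, 25.2% higher and 33.0% lower. In lymphomas against resting cells 5 of 9 were called, all lower, where 31.9% of 13239 genes were called, 14.5% higher and 17.4% lower. In lymphomas against LPS-treated cells 1 of 10 was called, where 13.8% of 12880 genes were called, 5.27% higher and 8.56% lower. After LPS the share of receptors called was therefore near the share of all genes. The median difference of the receptors was -0.747 after LPS, -1.43 in lymphomas against resting cells and -0.534 in lymphomas against LPS, and the medians of all genes tested were -0.157, -0.0645 and 0.028 on the same log2 scale. The genes were picked as receptors known to matter in B cells and had to be measurable in these samples, so nothing particular to them is read from these medians. Rescaling without Gm20594, Gm10800 and haemoglobin genes moved the median of all genes by -0.143 after LPS and by -0.132 in lymphomas against resting cells. In lymphomas against resting cells 1514 genes were then called higher and 3231 lower, where 1921 were higher and 2308 lower without this rescaling, and the receptors called stayed at 5 in both comparisons. Both comparisons with resting cells share the 4 resting samples, so their values are set side by side and not counted as independent.

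**Figure D4:**
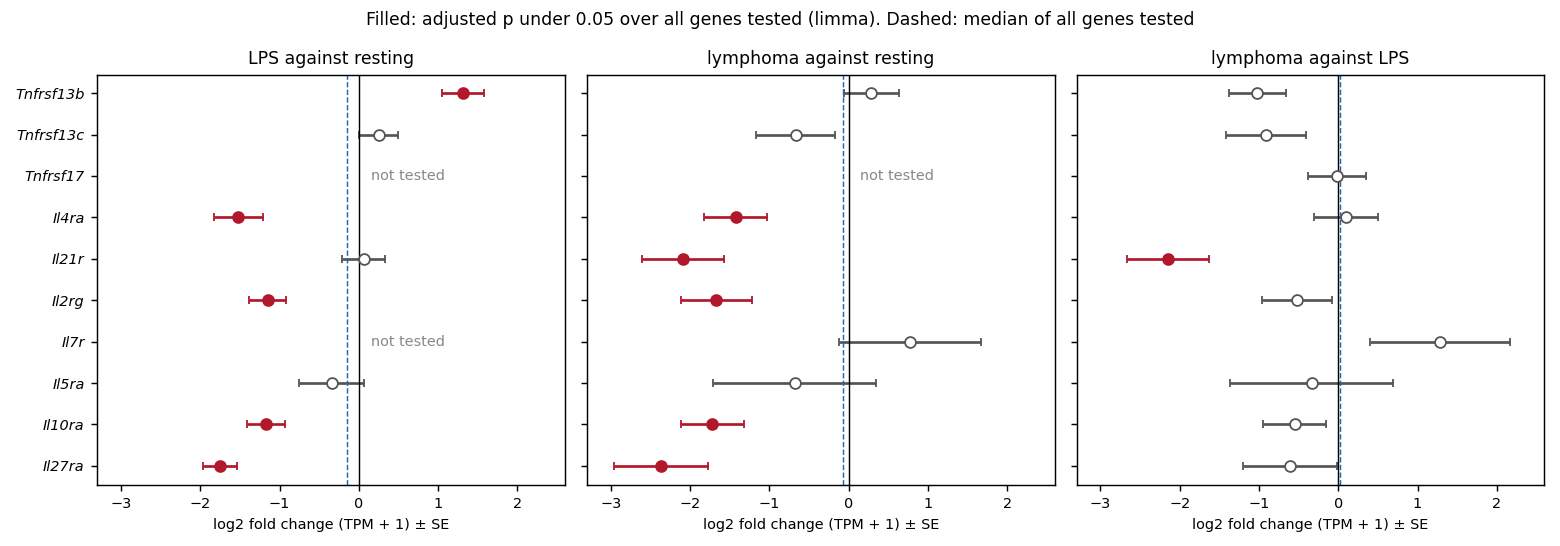
Log2 fold changes of the 10 receptor genes with their SE after LPS against resting cells (4 against 4 samples), in lymphomas against resting cells (19 against 4) and in lymphomas against LPS-treated cells (19 against 4). Filled points passed an adjusted p of 0.05 by limma, the dashed line is the median of all genes tested, and Il21r is the one receptor that is called in the right panel.

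The order of levels changed with the state of the cells. In lymphomas the medians ran from Tnfrsf13b (73.9 TPM), Tnfrsf13c (53.7), Il2rg (44.3), Il10ra (26.8), Il4ra (15.3), Il21r (7.93), Il27ra (3.63), Il5ra (1.71) and Il7r (0.958) to Tnfrsf17 (0.132). After LPS the order opened with Tnfrsf13b (171 TPM), Tnfrsf13c (100), Il2rg (71.4), Il21r (38.9) and Il10ra (36.1). At rest it opened with Il2rg (159 TPM), Il10ra (88.5), Tnfrsf13c (84.7), Tnfrsf13b (67.4) and Il4ra (49.6). TACI and BAFF-R thus led in lymphomas and after LPS, where the common gamma chain led at rest. In lymphomas every pair of neighbours in this order overlapped in its sample ranges. After LPS only Il4ra (10.4 TPM or more) and Il27ra (8.15 TPM or less), and Il5ra (2.91 TPM or more) and Il7r (1.37 TPM or less), were neighbours without overlap. At rest these were Il2rg (122 TPM or more) and Il10ra (108 TPM or less), and Il27ra (18.9 TPM or more) and Il5ra (14.5 TPM or less). These values are TPM, which is per length, so levels of different genes can be set side by side.

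The partner chains were described from a list of 10 genes. After LPS 1 of 9 tested was called higher and 4 were called lower (median log2 fold change -0.456), near the 58.2% of all genes called. Il2ra, which turns the common gamma chain complex into the high-affinity IL-2 receptor, was higher (1.61 ± 0.27, adjusted p = 0.000281), and Il9r (-3.19 ± 0.21, adjusted p = 4.61e-07), the TSLP receptor gene Crlf2 (-1.47 ± 0.22), the IL-10 receptor beta chain Il10rb (-1.38 ± 0.22) and Il6st (-0.89 ± 0.21) were lower. In lymphomas against resting cells 4 of 10 were lower, Il9r (-4.47 ± 1.10), Il2rb (-1.47 ± 0.50), Il10rb (-1.36 ± 0.33) and Il13ra1 (-0.90 ± 0.26), and none was higher (median -0.863, where 17.4% of all genes were called lower). Both chains of the IL-10 receptor were therefore called lower in each of these comparisons. Il9r was not low in every lymphoma: hv peripheral node T15 had 224 TPM and hv lung T16 had 182 TPM, against 59.0 to 108 TPM in resting cells. These were the 2 lymphomas with the most Il2rg. In lymphomas against LPS-treated cells, 1 of 9 partner chains was lower (median -0.20), Il2rb (-1.39 ± 0.47, adjusted p = 0.0496, limma).

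Few ligand genes were measurable in these B220-purified samples, and which cells in them made the ligand RNA was not tested. Of 14 ligand genes, 3 could be tested after LPS. Il10 was at 19.5 ± 7.16 TPM after LPS and 1.18 ± 0.74 TPM at rest (SD, n = 4 each), called higher by 3.23 ± 0.28 (adjusted p = 3.03e-06, limma), while its receptor gene Il10ra was lower. Ebi3, which encodes a subunit of IL-27, was at 20.3 ± 9.29 TPM after LPS and 5.09 ± 2.51 TPM at rest, called higher by 1.79 ± 0.35 (adjusted p = 0.00166, limma), while Il27ra was lower. Il15 was lower (-1.39 ± 0.28). In lymphomas Il10 and Ebi3 had medians of 0.091 and 0.142 TPM and were both called lower than after LPS (-3.06 ± 0.89 and -2.94 ± 0.96, adjusted p = 0.0227 and 0.0425, limma). Il10 still reached 43.4 TPM in hv peripheral node T8, 26.1 TPM in T39, 14.2 TPM in co lung T34 and 8.24 TPM in co lung T30, all lymphomas with high Il5ra. Ebi3 reached 30.2 TPM in T39, 29.5 TPM in hv peripheral node T15, 24.7 TPM in co lung T30 and 21.25 TPM in co lung T34. These also had high Il5ra, while T8 had 2.62 TPM of Ebi3. The next highest Ebi3 value was 9.76 TPM in hv lung T16.

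Of 11 JAK and STAT genes tested, 6 were lower after LPS and 7 were lower in lymphomas, each against resting cells, and none was higher. Of all genes tested 58.2% were called after LPS (33.0% lower) and 31.9% in lymphomas (17.4% lower), so the count after LPS was near the share of all genes. The medians of this list were -0.609 and -1.02, where those of all genes tested were -0.157 and -0.0645. Jak2 (-1.99 ± 0.18 after LPS and -2.04 ± 0.44 in lymphomas) and Stat2 (-1.81 ± 0.29 and -2.07 ± 0.28) were lower in both, and Jak1, the kinase bound by most of these interleukin chains, was lower by 1.43 after LPS and by 1.44 in lymphomas on the log2 scale. Stat4 was lower in lymphomas against resting cells (-3.91 ± 0.72) and against LPS-treated cells (-3.46 ± 0.70), at 3.58 ± 5.47 TPM in lymphomas (SD, n = 19), 29.4 ± 6.76 TPM after LPS and 47.3 ± 34.2 TPM at rest (n = 4 each). Jak3, the kinase of the common gamma chain, is named for its role after its values were seen, and did not pass in either comparison with resting cells (-0.15 ± 0.23 after LPS and -0.88 ± 0.46 in lymphomas). Of 12 cytokine signal inhibitors tested, 1 was higher and 3 were lower after LPS, led by Socs5 (-1.69 ± 0.20), and in lymphomas only Socs5 was called (-0.96 ± 0.34), so 8 of 12 and 11 of 12 were not called. The medians of the inhibitors were -0.435 after LPS and -0.073 in lymphomas.

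Genes that carry the BAFF receptor signal, the TRAF adaptors and the non-canonical NF-kappaB pathway, were lower for 7 of 11 tested after LPS and for 6 of 11 in lymphomas against resting cells, and none was higher (medians -0.634 and -0.976). Here too the count after LPS was near the 58.2% of all genes called, and in lymphomas 17.4% of all genes were called lower. After LPS the largest differences were in Traf5 (-1.33 ± 0.22), the NF-kappaB-inducing kinase gene Map3k14 (-1.32 ± 0.20), Birc3 (-1.20 ± 0.27) and Relb (-0.86 ± 0.27). In lymphomas they were in Traf1 (-3.28 ± 0.86), Nfkb2 (-2.35 ± 0.64), Relb (-1.81 ± 0.51) and Birc3 (-1.25 ± 0.40). Traf1 was also lower in lymphomas than after LPS (-3.54 ± 0.87). Of 11 target genes of STAT and NF-kappaB factors, 3 were higher and 3 lower after LPS, and 5 were lower in lymphomas against resting cells (medians -0.176 and -1.46). The kinase gene Pim2 (2.55 ± 0.20), the survival gene Bcl2a1d (1.91 ± 0.43) and Ccnd2 (1.71 ± 0.30) were higher after LPS, and Fcer2a, the IL-4-induced gene of CD23, was lower (-2.01 ± 0.65). In lymphomas Fcer2a (-5.45 ± 0.85), Bcl2l1 (-3.27 ± 0.42), Bcl2a1b (-2.80 ± 1.07) and Bcl6 (-2.30 ± 0.35) were lower than at rest. Fcer2a was at 0.467 TPM in the median lymphoma, against 31.9 TPM after LPS and 109 TPM at rest. The errors in these lists are SE from limma, and the lists were drawn from general knowledge.

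Between lymphomas, every receptor but Tnfrsf17, which was too low to be ranked, had a larger SD than most genes. The SD of log2(TPM + 1) over the 19 lymphomas was 2.13 for Il5ra, larger than in 98.9% of 12654 genes, and 1.83 for Il7r, larger than in 97.8%. Il7r was below 1 TPM in 10 lymphomas and entered this ranking only through those where it was high, so its rank is no support. The receptors were picked by name and the ranking was not matched for level, so the ranks are descriptions. It was 1.22 for Il27ra, 1.06 for Il21r, 1.03 for Tnfrsf13c, 0.91 for Il2rg, 0.81 for Il4ra and for Il10ra and 0.71 for Tnfrsf13b, which still exceeded 72.9% of genes. The ranks of several pairs moved together: rho was 0.87 for Il21r and Il2rg, 0.87 for Il2rg and Il27ra, 0.81 for Il4ra and Il2rg and 0.73 for Tnfrsf13c and Tnfrsf17. Such values were not particular to pairs of receptors. With the B-cell marker Ms4a1, rho was 0.81 for Il2rg, 0.79 for Il27ra, 0.75 for Il21r and 0.74 for Il4ra. These were the highest values with any B-cell marker. The lowest were with Ebf1, at -0.01, 0.05, -0.19 and -0.06 in the same order. The most opposed pairs were Il4ra and Il7r (-0.52) and Il10ra and Il7r (-0.45). All points are lymphomas that share lines, sites and libraries with other lymphomas, so the values of rho are descriptions.

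**Figure D5:**
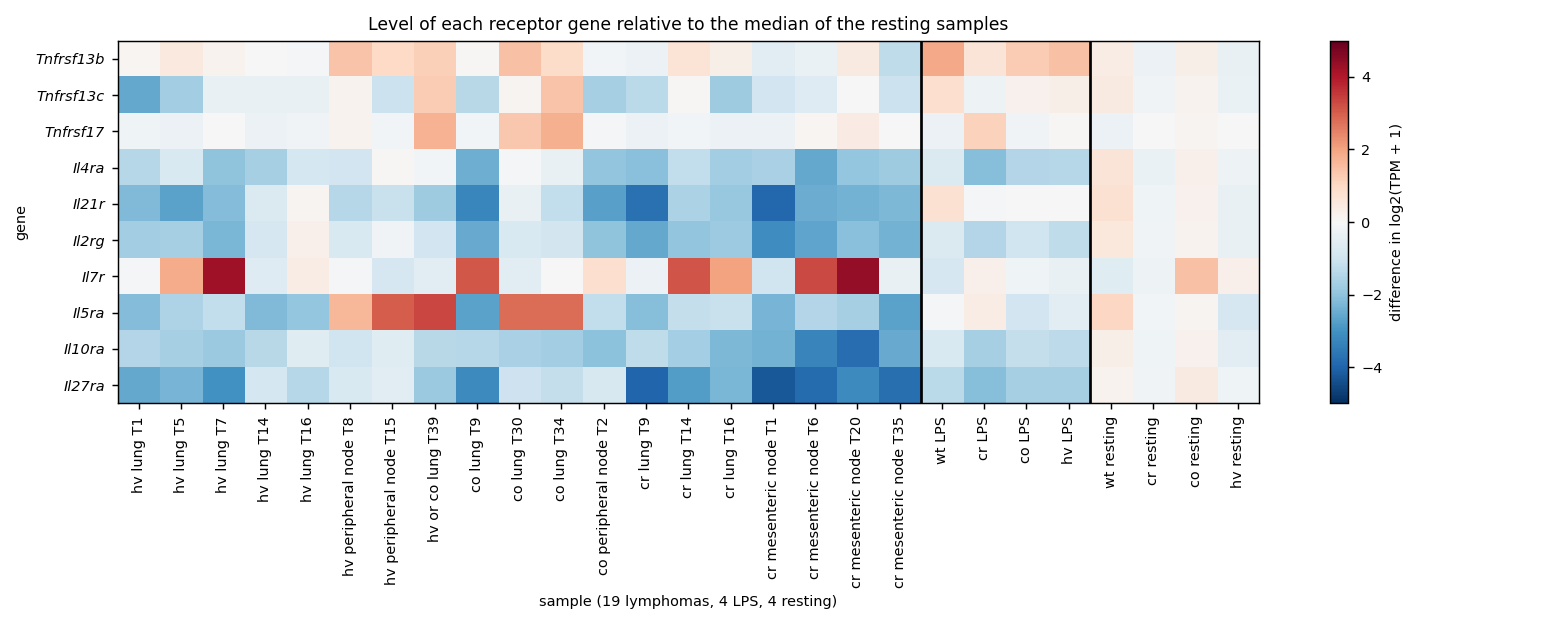
Difference of each receptor gene in log2(TPM + 1) from the median of the 4 resting samples, in 19 lymphomas by line and site, 4 LPS and 4 resting samples, with red above and blue below the resting median. The rows of Il4ra, Il21r, Il2rg, Il10ra and Il27ra are blue in most lymphomas, and the red cells of Il5ra and Il7r fall in different lymphomas.

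None of the lines or sites was separated by these receptors at the adjusted threshold. The fit held 18 lymphomas with line and site as terms and left out T39. For hv against cr, co against hv, co against cr and mesenteric node against lung, limma called 0 of 12480 genes (0%) and 0 of the 9 receptors tested, while 170, 393, 337 and 209 genes had an unadjusted p under 0.05. For peripheral node against lung it called 2 genes (0.0160%) and no receptor, with 628 genes at an unadjusted p under 0.05. Of the receptors, Il10ra had an unadjusted p of 0.00388 for mesenteric node against lung (-1.26 ± 0.38, adjusted p = 1), Il27ra had 0.0253 for peripheral node against lung (1.24 ± 0.51, adjusted p = 0.912), and none had p under 0.05 between lines. Within the cr line alone, the Il10ra difference between mesenteric node and lung was -1.26 as well (adjusted p = 0.999), with 11.0 ± 5.22 TPM in mesenteric nodes (SD, n = 4) and 26.7 ± 9.29 TPM in lung (n = 3).

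The means by line nevertheless differed in size. Il2rg averaged 60.0 ± 32.4 TPM in co (SD, n = 4), 90.2 ± 55.5 TPM in hv (n = 7) and 31.0 ± 9.37 TPM in cr lymphomas (n = 7), and by limma the interval of hv against cr on the log2 scale was 0.01 to 1.99 (1.96 SE each way, adjusted p = 0.981). Il27ra averaged 8.24 ± 4.68 TPM in co, 7.78 ± 5.11 TPM in hv and 1.36 ± 1.25 TPM in cr lymphomas, with 1.01 ± 0.54 for hv against cr (adjusted p = 0.981) and 1.15 ± 0.59 for co against cr (adjusted p = 0.998, limma). Il5ra was above 20 TPM in 2 of 4 co and 2 of 7 hv lymphomas and at most at 2.50 TPM in all 7 cr lymphomas, and its differences were 0.29 ± 1.19 for hv against cr, 1.10 ± 1.04 for co against hv and 1.40 ± 1.30 for co against cr. Single co lymphomas decided these values: co against hv was 0.12 without T34, 0.13 without T30, 2.00 without T9 and 2.78 without T2, and co against cr ranged over 0.28 without T34 to 2.44 without T2. These intervals are wide, so a difference of several fold between lines is neither shown nor shown to be absent. Mesenteric nodes were sampled only in cr and peripheral nodes only in hv and co, and all non-malignant cells came from spleen, so malignancy and tissue cannot be told apart.

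The genes whose ranks over the 19 lymphomas were most like those of each receptor were looked up among 8054 genes with a median of 5 TPM or more. For Il2rg they were Shisa5 (rho 0.97), Arhgef6 (0.93) and Uhrf1bp1l (0.93), and for Il21r they were Il2rg (0.87), Ccdc50 (0.87) and Cxcr5 (0.87), the chemokine receptor gene of follicular B cells. For Tnfrsf13b they were the immunoproteasome gene Psmb10 (0.90), the interferon-inducible GTPase gene Igtp (0.88) and Lrrc57 (0.88). Il4ra was most like Stard5, Cyb5r3 and Mthfs (0.91 each), Tnfrsf13c like Dpagt1 (0.82), Kcnn4 (0.81) and Tmco4 (0.81), and Il10ra like Ears2 (0.82), Dock10 (0.81) and Rasa3 (0.80). For the 3 receptors with lower medians the search was widened, after their values were seen, to 9077 genes at 5 TPM or more in at least 4 lymphomas. There Il5ra was most like Rnase6 (0.88) and Grn (0.83), Il27ra like Lipc (0.90), Tagap (0.89) and Shisa5 (0.89), and Il7r like the globin gene Hbb-bh1 (0.82), Znrf1 (0.81) and Gpr171 (0.79).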

How the data were processed

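Total RNA of B220-purified B cells was depleted of ribosomal RNA and sequenced from stranded, paired-end libraries, per the labels' protocols. The authors deposited TPM for 88198 transcripts, made with kallisto 0.43 on mm10 (GRCm38), per the submitters' processing notes. As to the transcript annotation and the strand setting, both were not given in the sources used here, and overlapping genes may share reads. TPM were summed to 30735 genes by Ensembl identifier, and 740 had no symbol. Depth was estimated from TPM steps, of which 60.7 to 75.6% were whole reads within 0.02, too few for a count test. Depths cover counting error only, and intervals of differences rest on the spread between samples. A gene entered a fit if 4 or more of its samples reached 1 TPM. The test was made on log2(TPM + 1), which understates changes of low genes, with limma 3.58.1 (trend, robust) in R 4.3.3 (the package data.table was at 1.17.8). P-values were adjusted over all genes tested (Benjamini-Hochberg, threshold 0.05). Groups were fitted in pairs, and lines and sites together on 18 lymphomas. Python 3.11.15, pandas 2.3.3, numpy 2.4.6 and matplotlib 3.10.9 were used. The fits were tested on simulated data.

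The 10 receptor genes and the other lists were chosen with earlier results of these data known. All 10 are named in every comparison, and of each other list up to 4 called genes with the largest changes, with the partner chains. A few genes that these rules name are not reported here. The alternatives were another pseudocount, no filter, 2 other scalings, subsets of samples, and leaving out single samples.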

Additional observations from a re-analysis of the deposited data

Results flagged for a closer look

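In the LPS group, Il21r stood apart in 1 sample: the wt LPS sample had 67.2 TPM, where the hv, co and cr LPS samples had 39.3, 38.6 and 36.2 TPM. The gap to the next sample was 0.87 of the range of the group on the log2(TPM + 1) scale, above the limit of 0.829 for 4 samples. It was the single flag among 50 groups of values tested for an outlying sample, and chance flags about 1 in 20 groups. The wt resting sample was also the highest of its group for Il21r, at 67.6 TPM. Without the wt LPS sample, LPS and resting cells differed by -0.14 in Il21r, and with it by 0.06. Lymphomas remained called lower than LPS-treated cells without that sample (-1.95).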

How the results depend on the processing

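The 5 receptors called after LPS were called in every alternative run, joined by Tnfrsf13c without the libraries rich in Gm10800, which made 6. The call of 5 in lymphomas against resting cells held in every alternative except those without the wt resting sample or without the libraries rich in Gm10800, where Il4ra missed the threshold and 4 were called. No receptor reversed a called direction. In lymphomas against LPS-treated cells, 2 receptors (Il21r and Tnfrsf13b) were called under median-of-ratios scaling, rescaling without abundant transcripts, the joined sample names only, without T39 and without the cr LPS sample, and 0 without the libraries rich in Gm10800. Leaving out single LPS or resting samples gave 5 receptors and 5874 to 7070 genes after LPS, 4 to 5 receptors and 2749 to 3222 genes in lymphomas against resting cells, and 1 to 2 receptors and 821 to 1392 genes in lymphomas against LPS; of the lymphomas, T39 was the only one left out singly in these comparisons. Over all genes, lymphomas against resting cells gave 2746 calls without the libraries rich in Gm10800, 2749 without the wt samples and 1907 without the 2 resting samples with the most macrophage markers (chosen after seeing the data). Lymphomas against LPS gave 433 without the libraries rich in Gm10800 and 1103 without the wt samples. Between lines, the lung lymphomas with joined names gave 1 gene for hv against cr, 3 for co against hv and 4 for co against cr. No filter gave 1 gene for co against hv and 5 for peripheral node against lung, no site term gave 1 for co against cr, and leaving out single co lymphomas gave 0 to 1 for co against hv and 0 to 2 for co against cr. Mesenteric node against lung gave 1 gene in the cr line alone, and 0 without single cr lymphomas. Peripheral node against lung gave 4 without the libraries rich in Gm10800 and 0 in hv lymphomas with separated names. No receptor was called in any of these line and site fits. The cause of these changes was not tested. With genotype as a block, LPS against resting gave 5 receptors and 7250 genes. Deviations of same-genotype samples correlated by 0.058 in wt, 0.222 in cr, 0.34 in co and 0.063 in hv. The highest correlations with another genotype were 0.128, 0.02, 0.298 and 0.135 in the same order. The same-genotype value was thus the higher in cr and co and the lower in wt and hv. The samples were not taken as paired, a choice that these values do not settle. Low genes such as Tnfrsf17 and Il7r rest on few reads and are limited by depth.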
